A study of Mus musculus with 66 samples.

Results

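In mouse 3T9-MycER fibroblasts, 5 genes best known from macrophages, endothelium and neurons had more RNA after Myc was switched on than before. They are Csf1r and Stab1 (macrophage and sinusoidal endothelium), Pecam1 (endothelium), and Tubb3 and Lingo1 (neuron). They were picked by gene symbol out of the 11513 genes measured, because their values were higher late in the time course in exons and introns of both RNA kinds. The rise itself therefore chose them, and their changes against 0 min are given as a description with no test. All 5 passed the low-value filter (10 or more in 3 or more libraries) in each of the 4 tables.

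The cells are a line grown out of E13.5 mouse embryo fibroblasts of genotype c-myc flox/flox and infected in culture with MycER, a model in which Myc activity is set by a drug. MycER, a fusion of Myc with part of the oestrogen receptor, stays inactive until the cells are given 4-hydroxytamoxifen (OHT). OHT was given at 400 nM. The short exposures were 10, 20 and 30 min, the middle ones 1, 1.5, 2 and 4 h, the long ones 8, 12 and 16 h, and cells at 0 min had no OHT. All groups carry the floxed alleles and the MycER construct. For the labelled libraries, a pulse of 4-thiouridine (4sU, 300 µM, 10 min) tagged the RNA made just before harvest. The total libraries are listed without 4sU, so labelled and total RNA differ in this treatment as well. From every time there are 3 labelled and 3 total libraries, 66 in all. Every comparison shares the same 0 min libraries, and no course without OHT is part of the series, so the effects of OHT and of time in culture cannot be told apart. In such bulk RNA, a change in the number of cells that hold a transcript and a change in its amount per cell cannot be told apart either.

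Deposited values of a library summed to between 11619390 and 14118146 in labelled exons and between 46498084 and 52716124 in total exons. The sums were between 31279341 and 39258946 in labelled introns and between 10649913 and 13008655 in total introns. In 13 of the 66 libraries some small whole number is nearly missing, as can happen after rescaling, so the number of reads behind a value is not known. No library stood far from the others of its group: the median distance of a gene from the mean of the other libraries of the group was 0.0597 to 0.168 on the log2 scale.

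Each of these genes has a defined role in its own lineage. Csf1r encodes the receptor tyrosine kinase for the growth factors CSF1 and IL34, on which most tissue macrophages depend. Stab1 encodes stabilin-1, a scavenger receptor that takes up SPARC and modified lipoproteins and sorts cargo to the endosome in some macrophages and in sinusoidal endothelium. Pecam1 encodes an adhesion molecule of endothelial junctions, platelets and leukocytes. Tubb3 encodes the class III beta-tubulin of neuronal microtubules. Lingo1 encodes a leucine-rich membrane protein that joins the Nogo receptor and slows axon growth and the maturation of oligodendrocytes. Myc binds DNA together with Max, chiefly at E boxes such as CACGTG.

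Start regions are shown so that the letters Myc prefers can be read in them directly, for the 3 genes whose sequence was used here. The 250 bases before each RefSeq start (build GRCm38.p6) are printed on the gene's strand, with capitals at matches to the E box CACGTG, to the variant E box CACGCG and to GGGCGG, the letters that Sp1 prefers, on either strand. The Tubb3 window is chr8:123411303-123411552, plus strand. The Stab1 window is chr14:31168642-31168891, minus strand. Lingo1 has one start with the window chr9:56796311-56796560 and another with chr9:56635649-56635898, both on the minus strand.
Tubb3: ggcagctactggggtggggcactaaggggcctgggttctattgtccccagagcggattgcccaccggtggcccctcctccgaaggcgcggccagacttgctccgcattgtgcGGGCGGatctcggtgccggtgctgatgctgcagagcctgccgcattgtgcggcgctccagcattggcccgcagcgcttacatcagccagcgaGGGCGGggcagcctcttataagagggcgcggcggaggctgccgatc
Stab1: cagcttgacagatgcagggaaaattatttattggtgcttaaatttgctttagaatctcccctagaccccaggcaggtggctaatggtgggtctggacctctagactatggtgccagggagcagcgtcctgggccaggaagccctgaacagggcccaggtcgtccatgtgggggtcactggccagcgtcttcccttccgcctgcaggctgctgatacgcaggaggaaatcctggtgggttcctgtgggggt
Lingo1, the first start: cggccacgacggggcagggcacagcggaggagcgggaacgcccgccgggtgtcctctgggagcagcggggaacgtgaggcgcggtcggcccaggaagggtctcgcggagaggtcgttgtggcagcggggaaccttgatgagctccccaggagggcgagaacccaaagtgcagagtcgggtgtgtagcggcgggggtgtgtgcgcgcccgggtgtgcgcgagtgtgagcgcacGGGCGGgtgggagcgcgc
Lingo1, the second start: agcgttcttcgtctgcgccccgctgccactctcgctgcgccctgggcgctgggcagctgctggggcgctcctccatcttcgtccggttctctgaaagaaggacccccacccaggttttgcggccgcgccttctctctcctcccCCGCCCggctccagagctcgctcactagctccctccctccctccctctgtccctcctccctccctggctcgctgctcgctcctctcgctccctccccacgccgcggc

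The motifs were searched in windows of 300 bases, from 250 bases before to 50 bases after a start, on both strands. None of the 4 windows held CACGTG, which 7.15% of 32851 RefSeq promoter windows of this length held. Tubb3 held 1 match to CACGCG, in the part after the start that is not printed, against a share of 9.27% of all windows. GGGCGG occurred in 2 places for Tubb3, in 1 place in the first and 2 places in the second Lingo1 window, and in no place for Stab1, against 35.7% of all windows that held it. The later match in the second Lingo1 window lies after the start, in the part that is not printed. The Tubb3 window was 67.3% G or C with 26 CG pairs, and the Lingo1 windows were 71.3% with 35 pairs and 72.7% with 32 pairs. The Stab1 window was 57.3% with 7 CG pairs, near the median window (52.7% and 7 pairs). These matches describe letters in the windows only. Whether Myc binds there was not measured in the files used here.

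All values below are deposited values scaled between libraries, unless RPKM is named, and log2 changes are against 0 min with their standard error (SE).

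Stab1, the scavenger receptor, was higher from 20 min on and stayed so to the end of the course. Its gene covers 29.6 kb of chromosome 14 (mm9, from 31952199 to 31981827, minus strand) with 69 exons. In total exons its values at 16 h were 764, 710.5 and 712, against 64.7, 84.2 and 72.2 at 0 min. The mean was 729 ± 30.2 at 16 h and 73.7 ± 9.83 at 0 min (SD, n = 3 each), 9.885 times as high, a log2 change of 3.30 ± 0.15. All total-exon libraries from 20 min on lay above all 0 min libraries, with a log2 change of 0.41 ± 0.15 at 20 min. The share of all genes whose libraries lay so is given for 16 h only, so such early times are a description. The means of total exons ran 73.7 at 0 min, 113 at 1 h, 209.5 at 1.5 h, 279 at 2 h, 428 at 4 h, 566 at 8 h, 744 at 12 h and 729 at 16 h. The libraries of 1.5 h, 2 h, 4 h and 8 h did not overlap with those of the next mean in the order, while 12 h and 16 h did.

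In newly made RNA the Stab1 increase came as early but was smaller. Labelled exons had 89.2, 98.9 and 97 at 20 min, against 77.5, 70.6 and 61.8 at 0 min, a log2 change of 0.44 ± 0.17. At 16 h they had 311, 285 and 279, a log2 change of 2.05 ± 0.17. The change in labelled minus that in total exons was 0.22 ± 0.23 at 30 min and -1.25 ± 0.23 at 16 h. Labelled exons had thus reached a log2 change of 1.88 by 4 h, while total exons went on to higher values until 12 h.

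Stab1 introns moved with the exons. Labelled introns had 143, 119 and 135 at 16 h, against 32.2, 29.7 and 26.9 at 0 min, a log2 change of 2.12 ± 0.26. Total introns had 153, 117 and 116 at 16 h, against 10.2, 23.8 and 22.4 at 0 min, a log2 change of 2.79 ± 0.26. The 3 labelled-intron libraries lay above 0 min from 30 min on and the total-intron libraries from 20 min on. In total RNA the intron change ran ahead of the exon change at 1 h, by 0.90 ± 0.30, and was 0.51 ± 0.30 below it at 16 h.

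Csf1r, the CSF1 receptor, changed late and more in total than in newly made RNA. It lies on chromosome 18 (mm9, from 61265226 to 61291803, plus strand, 21 exons). In total exons its values were 416, 412 and 418 at 16 h, against 137, 150.1 and 145 at 0 min, with no overlap. The mean was 416 ± 2.94 at 16 h and 144 ± 6.56 at 0 min (SD, n = 3 each), a log2 change of 1.52 ± 0.16. The libraries lay above all 0 min libraries from 1.5 h on. They had done so at 20 min as well, but overlapped with them again at 30 min and 1 h. Until 4 h the log2 change in total exons stayed at or below 0.35, and it was 0.75 at 8 h and 1.14 at 12 h.

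At 12 h the Csf1r libraries were spread widely. Replicate 1 had 216, below replicate 2 with 413 and replicate 3 with 362, and Stab1 had 539 in replicate 1 against 888 in replicate 2 and 806 in replicate 3. Without replicate 1 the 12 h log2 change in total exons was 1.42 for Csf1r and 3.51 for Stab1. That library lay 0.118 from the others of its group in the median gene of total exons, and 4 other libraries lay farther out. Labelled replicate 1 at 12 h was low as well, with 89.7 for Csf1r against 127 and 130.6 in labelled exons. For Stab1 it had 210.7 there against 295.6 and 291.9. In labelled introns it lay 0.151 from the others, the farthest of all libraries, and in labelled exons 0.14, with 2 farther out.

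Newly made Csf1r RNA showed a smaller difference. Labelled exons had 137, 109.8 and 125 at 16 h, against 87.2, 67.6 and 73.8 at 0 min, a log2 change of 0.70 ± 0.16. The libraries lay above all 0 min libraries at 4 h, 12 h and 16 h and overlapped with them at 8 h. The change in labelled minus that in total exons was -0.82 ± 0.23 at 16 h. Labelled introns had 128, 108 and 120.5 at 16 h and 112, 57.4 and 75.4 at 0 min, which overlapped, with a log2 change of 0.59 ± 0.21. Total introns had 70.02, 58 and 63.5 at 16 h, against 36.8, 43.7 and 33.5 at 0 min, a log2 change of 0.74 ± 0.26. The last 871 bases of Csf1r overlap with Hmgxb3 on the opposite strand, and whether counting used strand is not given, so reads there cannot be told apart.

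Pecam1, the adhesion molecule, sat near the bottom of the measured range in exons, and its introns gave the steadier readings. It covers 96.4 kb of chromosome 11 (mm9, from 106515531 to 106611942, minus strand), of which the first intron takes 35.0 kb. Total exons had 20.5, 30.1 and 23.4 at 16 h, against 11.6, 11.2 and 5.85 at 0 min, a log2 change of 1.32 ± 0.51. Labelled exons had 20.8, 14 and 14.3 at 16 h, against 3.87, 8.07 and 5.54 at 0 min, a log2 change of 1.37 ± 0.57. In both RNA kinds the exon libraries lay above all 0 min libraries from 8 h on. One library at 4 h held a value of 24.1 in total exons while the others of its group had 10.4 and 6.19, and without that library, replicate 1, the log2 change at 4 h was -0.17 in place of 0.32.

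Labelled introns of Pecam1 had 150.2, 123 and 126 at 16 h, against 40.2, 43.5 and 53.7 at 0 min, a log2 change of 1.52 ± 0.22. Up to 2 h the log2 change stayed between -0.15 and 0.18. It was 0.99 at 4 h, where the libraries with 112, 98.8 and 69.2 lay above all 0 min libraries, as they did at all later times. Total introns had 60.02, 51.5 and 54.6 at 16 h, against 27.6, 29.5 and 24.4 at 0 min, a log2 change of 1.00 ± 0.31.

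Tubb3, the neuronal beta-tubulin, was the most abundant of the 5 by exon RPKM at 0 min and 16 h, and its introns moved before its exons. The gene covers 10.6 kb of chromosome 8 (mm9, from 125935324 to 125945915, plus strand) with 4 exons, and the first intron takes 6.4 kb. Labelled introns had 154, 150.3 and 134 at 20 min, against 97.6, 55.4 and 93 at 0 min, a log2 change of 0.86 ± 0.18. Labelled exons at 20 min had 103, 107 and 101, against 81.4, 61.6 and 113 at 0 min, which overlapped, with a log2 change of 0.32 ± 0.23. The intron change minus the exon change in labelled RNA was 0.87 ± 0.29 at 30 min, 0.78 ± 0.29 at 1.5 h and -0.07 ± 0.29 at 16 h.

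Exons of total Tubb3 RNA followed. Total exons had 959.5, 908 and 988 at 1 h, against 803, 668.5 and 826 at 0 min, the earliest time at which the libraries did not overlap. The means ran 766 at 0 min, 952 at 1 h, 1085 at 1.5 h, 1245 at 2 h, 1765 at 4 h, 2423 at 8 h, 2940.0 at 12 h and 2486 at 16 h. The 12 h libraries, with 2659, 2954 and 3207, lay just above the 16 h libraries, with 2658, 2306 and 2492. The log2 change was 1.94 ± 0.09 at 12 h and 1.70 ± 0.09 at 16 h in total exons, and 1.83 ± 0.23 at 12 h and 1.82 ± 0.23 at 16 h in labelled exons. Labelled and total exons thus changed by like amounts at 16 h, with a difference of 0.12 ± 0.25.

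Lingo1, the partner of the Nogo receptor, was at or near 0 before OHT so the size of its log2 change turns on the constant added before the log. On the log2(value + 1) scale it had the largest changes of the 5 at 16 h in each of the 4 tables. On log2(RPKM + 0.1) its change was 2.35 in total exons, below Stab1 with 2.59, and 1.15 in labelled exons, below Tubb3 with 1.73 and Stab1 with 1.56. In introns on that scale it was 0.27 in labelled RNA, the lowest of the 5, and 0.13 in total RNA, where Pecam1 alone was lower with 0.10. The gene model used covers 66.8 kb of chromosome 9 (mm9, from 56466282 to 56533060, minus strand) in 4 exons, with a longest intron of 32.3 kb. The starts printed above lie farther apart than that, so this model cannot hold both. In total exons it was listed at 1.93, 2.03 and 0 at 0 min, and at 0 in all 3 libraries at 10 min and at 30 min. It then had 13.4, 7.07 and 7.24 at 1.5 h, 71.2, 44.6 and 32 at 4 h and 84, 97.3 and 115 at 16 h. The log2 change at 16 h was 5.58 ± 0.48 with the pseudocount of 1, and 4.04 with a pseudocount of 5. No fold is given against values this close to 0.

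Lingo1 values rose above those at 0 min earlier in introns than in exons, but its introns are far longer than its 3295 exon bases. Labelled introns had 7.92, 4.09 and 4.89 at 20 min, against 1.01, 1.98 and 0 at 0 min, while labelled exons were listed at 0, 0.999 and 0 at 20 min. At 1.5 h labelled introns had 41, 34.4 and 35.6 and labelled exons 0.992, 3.25 and 3.21. Per length, labelled introns had a mean of 0.00186 RPKM at 20 min and 0.000328 RPKM at 0 min. Labelled exons had 0.00192 RPKM at 20 min and 0.00387 RPKM at 0 min. At 1.5 h these means were 0.0122 RPKM in introns and 0.0143 RPKM in exons. The RPKM level in introns was thus not above that in exons at 20 min or 1.5 h. Against 0 min, however, the intron mean was higher at 20 min and the exon mean was not. On the log2(value + 1) scale the intron change minus the exon change in labelled RNA was 3.20 ± 0.68 at 1.5 h and 1.09 ± 0.68 at 16 h. With values this near 0, that difference turns on the constant added and on the length counted. Labelled exons lay above 0 min from 2 h on, with 5.87, 12.1 and 11.4, and reached 27.2, 28.1 and 34.7 at 12 h. At 16 h they had 21.7, 24 and 21.9, against 0, 2.02 and 0 at 0 min, a log2 change of 4.02 ± 0.54. The change in labelled minus that in total exons was -1.55 ± 0.72 at 16 h. Starting near 0, it turns on the constant added and on the larger sums of total exons, so no contrast of the RNA kinds is read from it. Labelled introns had 64.7, 81.7 and 110.3 at 12 h and 82.5, 52.5 and 55.05 at 16 h, which overlapped.

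**Figure D1:**
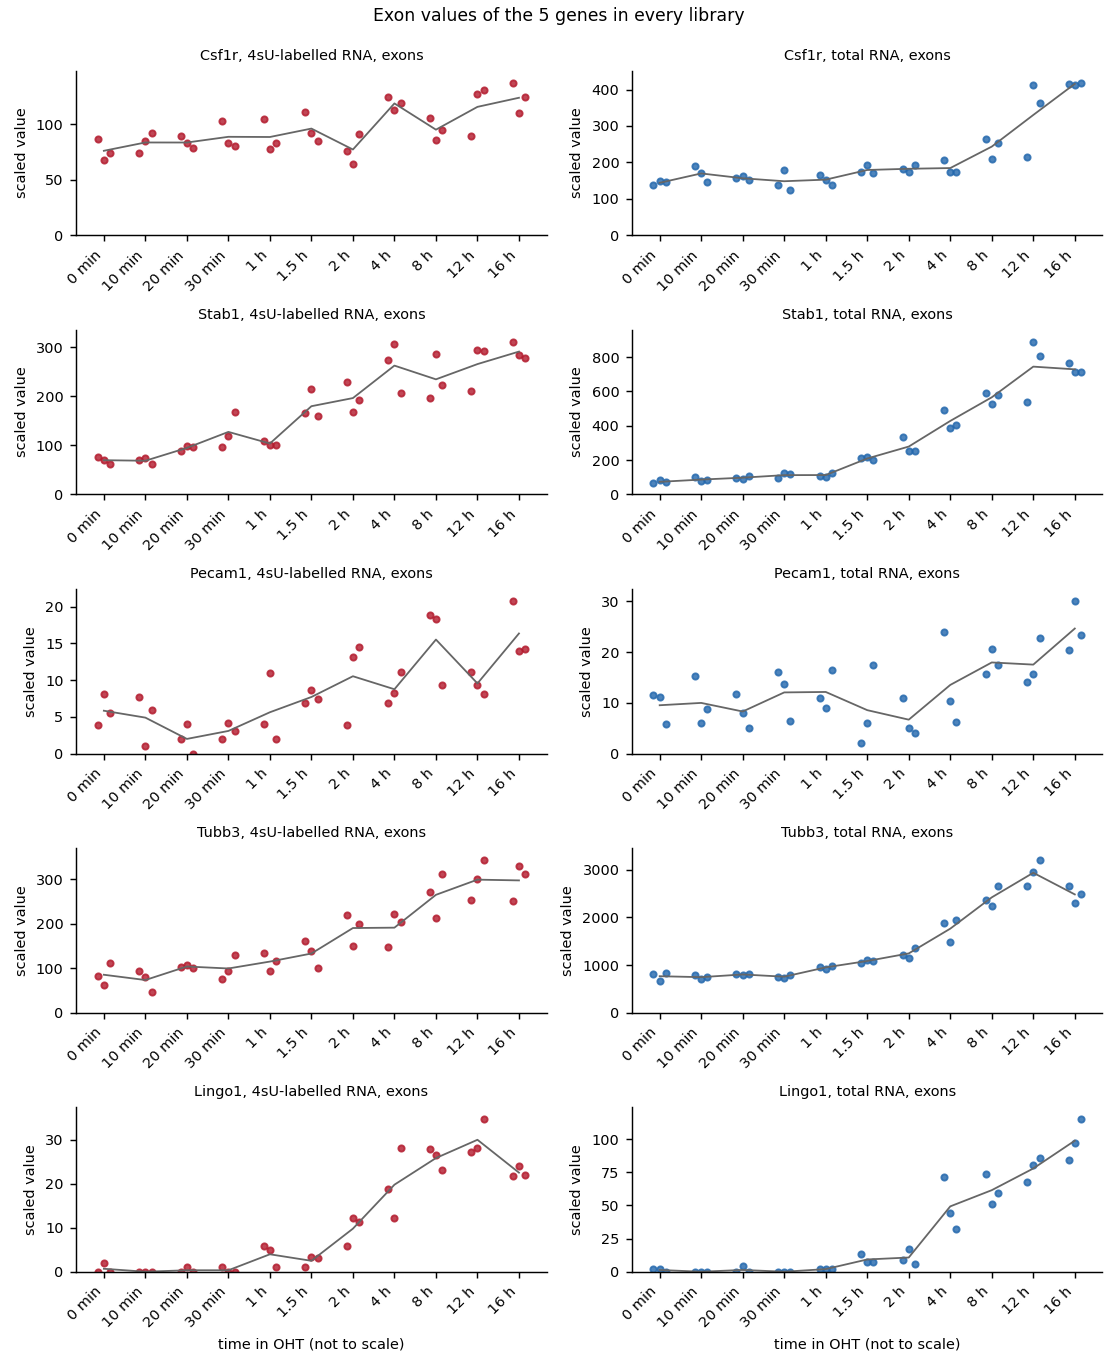
Scaled exon values (linear axes from 0) of Csf1r, Stab1, Pecam1, Tubb3 and Lingo1 at the 11 times, in 4sU-labelled RNA on the left and total RNA on the right. Each point is a library, each group has 3, and the line joins the means. Stab1 and Tubb3 climb in both RNA kinds, Csf1r in total RNA mainly from 8 h on, and replicate 1 at 12 h lies low for Csf1r and Stab1 in both RNA kinds.

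**Figure D2:**
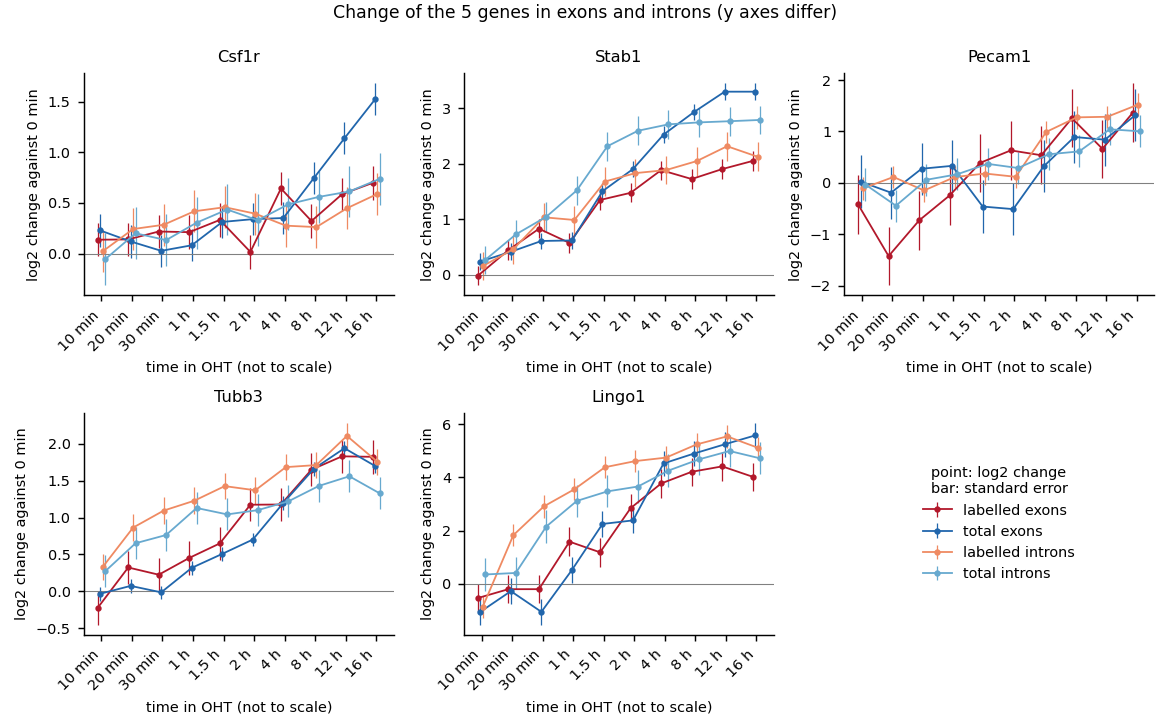
Log2 change against 0 min (y axes differ between genes) at the 10 later times in exons and introns of labelled and total RNA. Points are log2 changes on the log2(value + 1) scale and bars are standard errors. For Tubb3 the labelled introns lead the exons, while for Csf1r and Stab1 the total exons end above the labelled exons at 16 h. Lingo1 shows both on this scale, where its values near 0 make the change turn on the constant added.

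At 16 h all 5 genes lay above every 0 min library in labelled exons, as 27.5% of all tested genes did, in total exons, as 29.9% did, and in total introns, as 26.9% did. In labelled introns 4 of the 5 did, as 28.6% of all genes did. Since the rise chose the genes, nothing is read from these counts. The median change over all genes at 16 h was 0.01 in labelled exons and -0.01 in total exons.

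Measured per exon length, the levels remained low except for Tubb3. Tubb3 had 23.4 ± 1.66 RPKM in total exons at 16 h and 7.19 ± 0.796 at 0 min (SD, n = 3 each), above 78.8% of the 11513 genes at 16 h and 50.8% at 0 min. Stab1 had 1.29 RPKM at 16 h and 0.13 at 0 min, above 22.1% and 6.62% of genes. Csf1r had 1.22 RPKM at 16 h and 0.423 at 0 min, above 21.6% and 13.2% of genes. Lingo1 had 0.441 RPKM at 16 h and 0.0059 at 0 min, above 13.7% and 0.0347% of genes. Pecam1 had 0.12 RPKM at 16 h and 0.0464 at 0 min, above 6.3% and 2.5% of genes. The order of the 5 by total exon RPKM at 16 h was thus Tubb3, Stab1, Csf1r, Lingo1 and Pecam1, and Stab1 and Csf1r differed by little more than their SDs of 0.0527 and 0.00717. At 0 min Csf1r stood above Stab1, and Lingo1 was lowest.

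Other markers of the same lineages were counted beside the share of all tested genes that moved at 16 h. A gene is said to have risen or fallen at an adjusted p under 0.05 (limma, Benjamini-Hochberg). Higher by that rule were 22.5% of all genes in labelled exons and 26.9% in total exons, and lower were 21.7% in labelled exons and 29% in total exons. Nothing particular to a list is read from its counts. Of 36 listed macrophage genes beside Csf1r and Stab1, 8 had a row in the tables, and markers such as Adgre1, Tyrobp and Spi1 were not analysed here. In labelled exons at 16 h 1 of the 8 rose, 1 fell and 6 were not called, with a median change of 0.09. In total exons 1 rose and 2 fell, with a median of -0.20. Coro1a, an actin regulator of leukocytes, rose in labelled exons (log2 change 0.73 ± 0.28, limma adjusted p 0.0336), but had 23.3 at 16 h and 34.4 at 0 min in total exons. That call was lost without replicate 2 at 16 h, replicate 1 at 0 min or replicate 2 at 0 min of labelled RNA, which each left 0 macrophage genes called higher. Lgals3, a lectin of macrophages that many other cells also make, was the highest of the list and was not called in labelled exons (0.08 ± 0.11, limma adjusted p 0.58) and fell in total exons (-0.23 ± 0.09, limma adjusted p 0.0334).

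Leukocyte genes of the list, named here outside the naming rule, had low RPKM, as Pecam1 had with 0.12 in total exons at 16 h. Ptprc and Itgam had higher means at 16 h than at 0 min, and neither was called. Ptprc, the pan-leukocyte phosphatase, had 0.0734 RPKM in total exons at 16 h and 0.043 at 0 min (0.79 ± 0.36, limma adjusted p 0.063). Itgam, an integrin of myeloid cells, had 0.0398 RPKM at 16 h and 0.0212 at 0 min (limma adjusted p 0.0755), and Fcer1g, an Fc receptor subunit, 0.185 RPKM at 16 h and 0.21 at 0 min. Cd68, a lysosomal glycoprotein, rose in total exons (0.49 ± 0.12, limma adjusted p 0.000686) and was named after its values were seen. It was the 1 macrophage gene called higher there, and 2 were called without replicate 1 at 0 min. The summed RPKM of the 8 macrophage genes was 61.5 to 69.5 in the total libraries at 16 h and 72.1 to 83.5 at 0 min. None of the 8 was at 0 in all libraries of a group. The part of macrophages in the Csf1r and Stab1 values was not tested.

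Of 40 listed endothelial genes beside Pecam1, 15 had a row and 14 were tested in labelled exons. There 2 rose and 4 fell, with a median change of -0.05, and in total exons 3 of 15 rose and 6 fell, with a median of -0.21. Mcam, an adhesion molecule of endothelium and pericytes, fell (-0.69 ± 0.07 in labelled exons, limma adjusted p 9.08e-11), as did Flt1, a VEGF receptor (-0.59 ± 0.12, limma adjusted p 7.63e-05). Ets1, a transcription factor, fell slightly (-0.20 ± 0.06, limma adjusted p 0.00764). Apln, the ligand of the apelin receptor, rose (0.27 ± 0.08, limma adjusted p 0.00873), and so did Erg, an endothelial transcription factor named after its values were seen (1.40 ± 0.44, limma adjusted p 0.00974). Without replicate 3 at 0 min of labelled RNA, 1 endothelial gene was called higher. The summed RPKM of the 15 was 64 to 67 in total libraries at 16 h and 88 to 92 at 0 min.

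In total exons the endothelial genes that moved pointed both ways, and those named here were chosen after their values were seen. Egfl7, a secreted factor of vessels, had 111 at 16 h and 28.2 at 0 min, a change of 1.95 ± 0.26 (limma adjusted p 2.37e-07). Flt4, the receptor of lymphatic endothelium, had 7.23 at 16 h and 25.9 at 0 min, a change of -1.77 ± 0.40 (limma adjusted p 0.00044). Stab2, the close relative of Stab1, was not called and had 32.9 at 16 h and 33.6 at 0 min in total exons (limma adjusted p 0.936). The part of endothelial cells in the Pecam1 values was not tested.

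Of 43 listed neuronal genes beside Tubb3 and Lingo1, 22 were tested in labelled exons at 16 h. There 2 rose and 8 fell, with a median change of -0.11, and in total exons 3 rose and 10 fell, with a median of -0.34. Ncam1, a neural adhesion molecule, fell (-0.98 ± 0.12 in labelled exons, limma adjusted p 5.13e-08). Gap43, a protein of growth cones, fell (-0.92 ± 0.17, limma adjusted p 4.26e-05), as did Nlgn2, a synaptic adhesion protein (-0.83 ± 0.17, limma adjusted p 0.000101), and Dpysl3, a regulator of axon growth (-0.57 ± 0.11, limma adjusted p 5.34e-05). Uchl1, a neuronal ubiquitin hydrolase and the highest of the list in total RNA at 0 min, fell too (-0.53 ± 0.12, limma adjusted p 3e-04). The 2 that rose were Kif5a, a motor of axonal transport (0.98 ± 0.24, limma adjusted p 0.00104), and Nefh, a neurofilament chain (1.01 ± 0.32, limma adjusted p 0.00896), both named after their values were seen. Without replicate 2 at 16 h of labelled RNA, 1 was called higher. The summed RPKM of the 22 was 84.7 to 89.7 in total libraries at 16 h and 121 to 134 at 0 min, and the part of neuronal cells in the Tubb3 and Lingo1 values was not tested.

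Fibroblast genes were abundant at both times, and most of them fell. Of 28 listed fibroblast genes 23 were tested in labelled exons at 16 h, where 1 rose and 15 fell, with a median change of -0.58. In total exons 1 rose and 16 fell. Their summed RPKM was 3801 to 3998 in total libraries at 16 h and 6234 to 6558 at 0 min. Col5a1, a fibrillar collagen, fell (-1.33 ± 0.07 in labelled exons, limma adjusted p 1.36e-16), and so did Col1a1, the main fibrillar collagen (-1.50 ± 0.13, limma adjusted p 7.86e-12), Pdgfra, a PDGF receptor (-0.92 ± 0.08, limma adjusted p 1.03e-11), and, in total exons, Fn1, fibronectin (-0.76 ± 0.20, limma adjusted p 0.00152). S100a4, a calcium-binding protein and the highest of the list at 0 min, fell as well (-0.58 ± 0.15, limma adjusted p 0.00188).

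**Figure D3:**
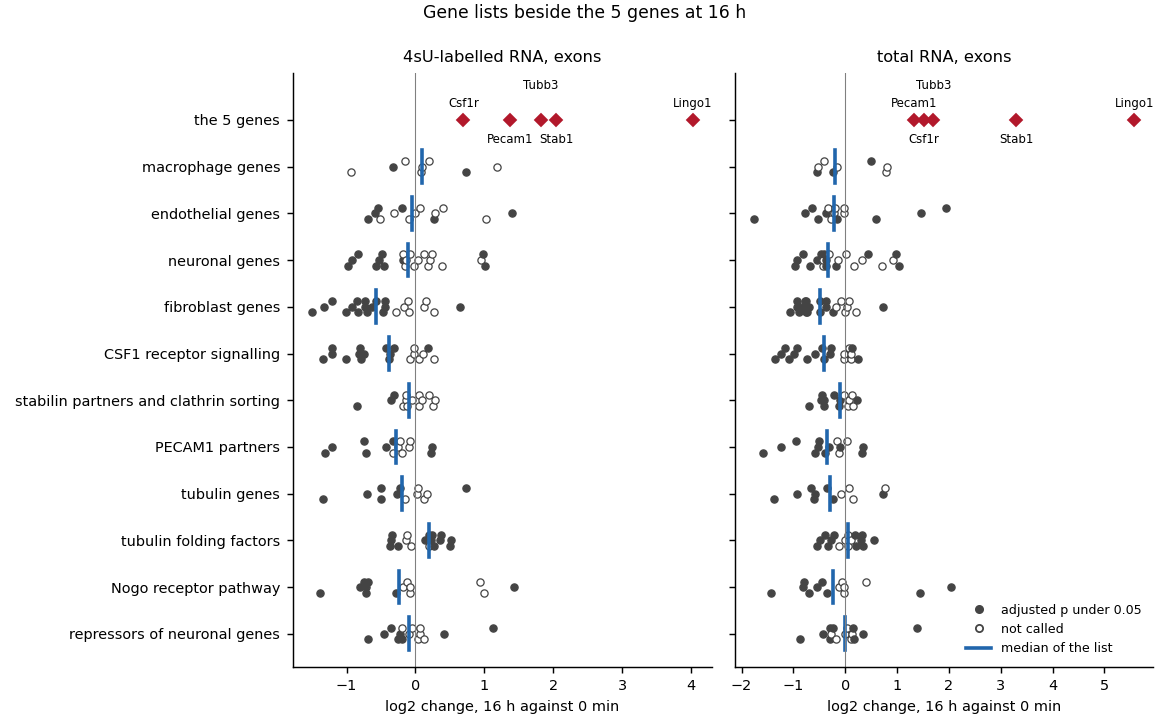
Log2 change at 16 h against 0 min in exons of labelled RNA (left) and total RNA (right) for 11 gene lists, with the 5 genes in the top row as diamonds. Each circle is a tested gene, filled where the limma adjusted p was under 0.05, and the blue line is the list's median. The list medians lie between -0.58 and 0.19 in labelled exons, and the 5 genes were chosen for their rise.

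The pathway around each gene was examined next, from lists that leave the gene itself out. Around Csf1r, 19 genes of CSF1 receptor signalling were tested. In labelled exons 1 rose and 12 fell at 16 h (median -0.38), and in total exons 2 rose and 12 fell (median -0.40). Both ligands of the receptor fell. Csf1 had 8899 at 16 h and 21120.0 at 0 min in total exons, a change of -1.24 ± 0.12 (limma adjusted p 9.74e-10), and Il34 had 128 at 16 h and 328 at 0 min, a change of -1.36 ± 0.19 (limma adjusted p 5.01e-07). The kinases Src (-1.22 ± 0.10, limma adjusted p 7.3e-12) and Fyn (-0.74 ± 0.09, limma adjusted p 4.44e-08), which act below the receptor, fell in labelled exons. Akt1, a survival kinase and the most abundant of the list by RPKM at 0 min, rose slightly there (0.18 ± 0.07, limma adjusted p 0.0479).

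Around Stab1, 14 genes of stabilin partners and clathrin sorting were tested, of which 0 rose and 3 fell in labelled exons and 1 rose and 8 fell in total exons at 16 h. Without the adjustment for many tests, limma gave 2 of them an upward p under 0.05, Chid1 and Ap2a1. Sparc, a matrix protein that stabilin-1 takes up, fell (-0.85 ± 0.11 in labelled exons, limma adjusted p 7.92e-08), as did the clathrin heavy chain Cltc (-0.36 ± 0.08, limma adjusted p 0.000232) and the adaptor subunit Ap2b1 (-0.31 ± 0.06, limma adjusted p 2.73e-05). Around Pecam1, 14 partners were tested, of which 2 rose and 6 fell in labelled exons and 2 rose and 9 fell in total exons. Jup, plakoglobin of cell junctions, fell (-1.32 ± 0.15 in labelled exons, limma adjusted p 3.81e-09), and so did the integrin chains Itgb3 (-1.22 ± 0.15, limma adjusted p 3.17e-08) and Itgav (-0.71 ± 0.09, limma adjusted p 3.95e-08), of which the integrin that binds PECAM1 is made. Ctnnb1, beta-catenin and the highest of this list, fell slightly in total exons (-0.11 ± 0.04, limma adjusted p 0.0297).

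Tubb3 was set beside the 12 other tubulin genes measured. In labelled exons at 16 h 1 rose, 6 fell and 5 were not called, and in total exons 1 rose and 7 fell. Tubb5, the most abundant beta-tubulin here, had 89660.0 at 16 h and 141500.0 at 0 min in total exons (-0.66 ± 0.05, limma adjusted p 1.4e-12). Tubb2a also fell in total exons (-0.92 ± 0.08, limma adjusted p 1.96e-10), as did Tubb4b (-0.36 ± 0.09, limma adjusted p 0.000704) and Tubb6 (-0.24 ± 0.09, limma adjusted p 0.0191). In labelled exons Tubb4b was not called (-0.16 ± 0.10, limma adjusted p 0.19).

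The alpha-tubulins Tuba1a (-1.34 ± 0.11 in labelled exons, limma adjusted p 3.44e-12), Tuba1b (-0.27 ± 0.08, limma adjusted p 0.00529) and Tuba1c (-0.50 ± 0.10, limma adjusted p 0.00014) fell, and Tuba4a was not called (0.04 ± 0.15). Tubg1, Tubg2 and Tubd1, which serve microtubule nucleation and centrioles, were not called in either RNA kind. Tube1, the epsilon-tubulin of centrioles, rose (0.73 ± 0.09 in labelled exons, limma adjusted p 5.2e-08). Summed RPKM of the 12 genes was 1329 to 1436 in total libraries at 16 h and 2055 to 2276 at 0 min, beside 23.4 for Tubb3 at 16 h and 7.19 at 0 min.

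Tubulin genes share much sequence, so reads could be split among them in a way the sources used here do not describe. The Tubb3 coding sequence was 86.2% identical to that of Tubb6, 84.3% to Tubb2a, 83% to Tubb4b and 82.1% to Tubb5, with longest identical runs of 47, 45, 35 and 26 bases. The part of shared reads in the Tubb3 values was not tested.

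Factors that fold tubulin moved both ways. Of 17 tested 9 rose and 4 fell in labelled exons, and 6 rose and 6 fell in total exons. The prefoldin subunit Pfdn2 rose (0.51 ± 0.08 in labelled exons, limma adjusted p 2.46e-06), as did the chaperonin subunits Cct7 (0.37 ± 0.07, limma adjusted p 2.58e-05), Cct8 (0.36 ± 0.07, limma adjusted p 2.88e-05) and Cct2 (0.27 ± 0.06, limma adjusted p 0.000256). The highest of the list at 0 min, Cct5, rose in labelled exons (0.19 ± 0.08, limma adjusted p 0.0403) and was not called in total exons (0.11 ± 0.06, limma adjusted p 0.0806).

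Around Lingo1, 14 genes of the Nogo receptor pathway were tested, of which 1 rose and 7 fell in labelled exons and 2 rose and 7 fell in total exons. Limk1, the kinase that inactivates cofilin, rose (1.43 ± 0.12 in labelled exons, limma adjusted p 3.09e-12). Kalrn, a guanine nucleotide exchange factor, fell (-1.39 ± 0.09, limma adjusted p 2.06e-14), as did Egfr, the EGF receptor (-0.74 ± 0.06, limma adjusted p 7.3e-12), and App, the amyloid precursor protein (-0.72 ± 0.06, limma adjusted p 1.71e-11). Cfl1, cofilin and the highest of the list, fell slightly (-0.29 ± 0.09, limma adjusted p 0.00753). Tnfrsf19, also called TROY, a receptor that stands in for p75 in the Nogo complex, was named after its values were seen. It had 93.2 at 16 h and 23 at 0 min in total exons, a change of 2.04 ± 0.22 (limma adjusted p 5.13e-09), and was not called in labelled exons (0.99 ± 0.46, limma adjusted p 0.0781).

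Repressors that keep neuronal genes off in other tissues changed in both directions. Of 15 tested 2 rose and 6 fell in labelled exons, and 4 rose and 5 fell in total exons. Rcor2, a corepressor of the REST complex, rose (1.13 ± 0.14 in labelled exons, limma adjusted p 3.55e-08), as did its relative Rcor1 (0.41 ± 0.09, limma adjusted p 0.000169). The phosphatases Ctdsp2 (-0.69 ± 0.13, limma adjusted p 5.68e-05) and Ctdsp1 (-0.36 ± 0.09, limma adjusted p 0.000925), which serve the same complex, fell. Ptbp1, a splicing repressor of neuronal exons and the highest of the list, was not called in labelled exons (0.12 ± 0.06, limma adjusted p 0.108). Rest itself, named after its values were seen, fell slightly (-0.19 ± 0.07, limma adjusted p 0.0143).

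The genes next to the 5 on the chromosome did not share one direction. Beside Csf1r, Pdgfrb, a PDGF receptor 20.5 kb away, fell (-0.84 ± 0.15 in labelled exons, limma adjusted p 1.84e-05), and Slc26a2, a sulphate transporter 60.8 kb away, rose (0.99 ± 0.16, limma adjusted p 2.5e-06). Hmgxb3, which overlaps with the end of Csf1r, was not called in labelled exons (0.18 ± 0.09, limma adjusted p 0.0845) and rose slightly in total exons (0.19 ± 0.05, limma adjusted p 0.00348). Beside Stab1, Nt5dc2 overlaps with 109 bases of its end on the opposite strand and rose (0.54 ± 0.09 in labelled exons, limma adjusted p 2.59e-06). Tnnc1, whose annotated model begins 1.2 kb beyond the Stab1 start, fell in labelled exons (-1.28 ± 0.33, limma adjusted p 0.00162). Its values there were low, 20.5 at 0 min and 7.85 at 16 h, and its introns were not called in either RNA kind at 16 h. Pbrm1, 17.4 kb away, was not called in labelled exons (-0.13 ± 0.07, limma adjusted p 0.13).

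Beside Pecam1, Polg2, which encodes a subunit of the mitochondrial DNA polymerase 17.6 kb away, rose in all 4 tables (0.87 ± 0.11 in labelled exons, limma adjusted p 4.37e-08), and Tex2, 40.8 kb away, was not called (-0.03 ± 0.08, limma adjusted p 0.804). Beside Tubb3, Tcf25, 7.2 kb away, fell slightly (-0.29 ± 0.07, limma adjusted p 0.000491), and Def8, 21.0 kb away, was not called in either exon table (0.16 ± 0.10 in labelled exons, limma adjusted p 0.22). Beside Lingo1, Cspg4, a proteoglycan of pericytes and glial progenitors, fell (-0.60 ± 0.11, limma adjusted p 4.25e-05). It lies 179.8 kb from the mm9 model of Lingo1, which cannot hold both printed starts.

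**Figure D4:**
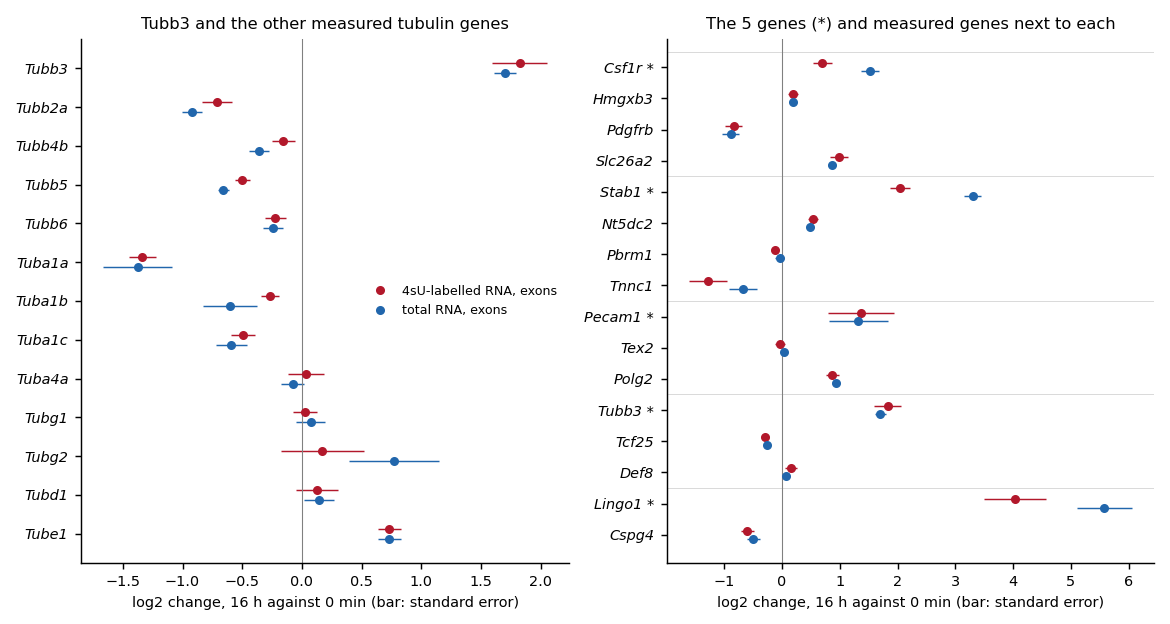
Log2 change at 16 h against 0 min in labelled exons (red) and total exons (blue), for Tubb3 with the 12 other measured tubulin genes on the left, and for each of the 5 genes (starred) with measured genes that overlap or lie next to it on the right. Points are log2 changes and bars standard errors. Tubb3 stands at 1.82 in labelled and 1.70 in total exons, and Tuba1a at -1.34 and -1.38.

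The 5 genes were also compared with all others by their course over time. Exon values of the 66 libraries, centred within each RNA kind, were correlated over 11067 genes. The libraries share the 3 replicates of each time and the common rise, so the correlations are descriptions. Stab1 was most like Rsad1 (r = 0.96), Gne (r = 0.95) and Daglb (r = 0.95). Tubb3 was most like Srd5a1 (r = 0.96), Gde1 (r = 0.96) and Smoc1 (r = 0.95). Lingo1 was most like Ankrd6 (r = 0.95), Rragb (r = 0.95) and Dgat2 (r = 0.94). Csf1r was most like Cmss1 (r = 0.84), Eif2b4 (r = 0.83) and Daglb (r = 0.83), and Pecam1 was most like St7 (r = 0.72), Nedd1 (r = 0.70) and Mipep (r = 0.69).

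Among themselves the 5 fell into closer and looser pairs. Over the same 66 libraries r was 0.91 for Stab1 with Lingo1, 0.91 for Stab1 with Tubb3 and 0.89 for Tubb3 with Lingo1. Csf1r had r of 0.79 with Stab1, 0.72 with Tubb3 and 0.71 with Lingo1, and Pecam1 had r between 0.43 and 0.58 with the others. The most alike genes changed less than the gene they matched in some cases: Rsad1 had a log2 change of 1.41 ± 0.06 in total exons at 16 h, against 3.30 ± 0.15 for Stab1, and Ankrd6 3.24 ± 0.12, against 5.58 ± 0.48 for Lingo1.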

How the data were processed

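Libraries of 4sU-labelled RNA and of total RNA without 4sU were sequenced, per the labels. The authors deposited 4 tables of whole numbers per gene, named counts, for exons and introns of each RNA kind. As deposited by the authors they are treated as a score and not as raw counts, because in 13 of 66 libraries some small whole number is nearly missing. Whether and how they were rescaled is not stated. The authors also deposited RPKM, which equals the same value times 1 constant per gene (spread of the ratio at most 0.977%). Per the submitters' processing notes, TopHat, TopHat2 2.0.8 and mm9 were used. For the counter, the annotation and the strand setting, the sources used here give nothing.

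The design had foreseen that the tables might not be raw counts, so no count model was run. Values were scaled by trimmed means of log ratios (trims of 0.3 and 0.05), filtered (at least 10 in at least 3 libraries) and compared as log2(value + 1). limma 3.58.1 in R 4.3.3 fitted 1 mean per time over the 33 libraries of a table, with a trend in the variance, two-sided and Benjamini-Hochberg adjusted over all tested genes, with calls at an adjusted p under 0.05. A fold change on this scale understates that of low genes. The tables were scaled separately. The test was run first on simulated data. Read depth is unknown, so no counting interval is given. No label says that replicates came from separate cultures, and p-values then reflect only the variation among the libraries sequenced, possibly technical. The described protocol has no spike-in, so levels are relative within a library.

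The 5 genes and the lists were chosen with earlier results of these data known. Named were the 5 genes, the 3 genes most like each in course, the neighbours, all tubulins, and in each list up to 4 called genes with the smallest p in labelled exons at 16 h plus the one with the highest RPKM at 0 min. Genes outside that rule are marked in the text, and a few genes within it are not reported here. Gene positions are mm9. Promoter windows are RefSeq on GRCm38.p6, matched by symbol for 3 of the 5 genes. Alternatives were other pseudocounts, filters and scalings, RPKM, only the libraries compared, a replicate block and leaving out each library.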

Additional observations from a re-analysis of the deposited data

How the results depend on the processing

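The direction of the 40 log2 changes (5 genes, 4 tables, 4 h and 16 h) was kept in 539 of 540 alternative values, of which 489 moved by less than the spread between replicates. The low-value filters and the replicate block are left out of that tally, since they cannot change a difference of means here. The exception was Pecam1 in total exons at 4 h, whose values ran between -0.168 without replicate 1 at 4 h and 0.733 without replicate 3. Other scalings moved none of the 16 h exon changes beyond that spread, while the constant added before the log moved the low genes. With a pseudocount of 0.5 the 16 h change of Lingo1 in labelled exons was 4.75. With a pseudocount of 5 it was 2.30 for Lingo1 and 0.98 for Pecam1 in labelled exons, and 4.04 for Lingo1 in total exons. With RPKM plus 0.1 it was 1.56 for Stab1, 0.57 for Pecam1 and 1.15 for Lingo1 in labelled exons, and 1.34 for Csf1r, 2.59 for Stab1, 0.59 for Pecam1 and 2.35 for Lingo1 in total exons. With 0 min, 10 min and 20 min joined as the control, chosen after seeing the data, it was 1.91 for Stab1 and 1.98 for Pecam1 in labelled exons, and 1.41 for Csf1r and 3.08 for Stab1 in total exons. A filter at 50 removed Pecam1 from both exon tables and Lingo1 from labelled exons and total introns, so no value is given there. Of 384 alternative counts of called genes 364 lay within 1.5 times the reported count. With the filter at 50, 1 endothelial and 1 neuronal gene were called higher in labelled exons. With only the 6 libraries compared, 0 macrophage genes were called higher in labelled exons and 2 in total exons. Leaving out 1 library at a time gave 0 to 1 macrophage, 1 to 2 endothelial and 1 to 3 neuronal genes higher in labelled exons, and 1 to 2 macrophage genes higher in total exons. The cause of these moves was not tested, beyond the fewer genes or libraries that the filter and the omissions leave. Replicate numbers were not taken as pairs, since no label says what they share. Deviations of same-numbered libraries at 16 h and 0 min correlated between -0.126 and 0.164. Differently numbered libraries were not compared in this way, so pairing remains undecided. With a replicate block, 2700 genes were called higher in labelled exons at 16 h, against 2590 without it, and 3265 in total exons, against 3095 without it. Read depth being unknown, values under about 10, as for Pecam1 and early Lingo1 exons, carry little precision.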
